A study of Mus musculus with 26 samples.

Results

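The change in striatal mRNA abundance between 12 and 18 months of age was described in WT mice, across all genes of an Affymetrix mouse gene array. The arrays were chosen by their labels, and all WT arrays of these ages entered, which were 8 of the 26 arrays of the series: 5 of 12 months (females F1 and F2, males M1, M2 and M3) and 3 of 18 months (female F1, males M1 and M2). All 8 animals were Wild Type (Hdh+/+), came from mice bred in house on the C57BL6/J background beside hemizygous YAC128 mice, and no treatment is given for them. The YAC128 mice model Huntington disease through a transgene of full-length human huntingtin with a long CAG repeat, and their 5 arrays of 12 months and 5 of 18 months served only for comparison. The sample labels give these ages as weeks with the same numbers, and the months of the study's methods were used. The tissue was micro-dissected striatum and each array is taken here as a different mouse. Each age is a separate set of mice, and no scan date or slide was given in the files used here. The study's discussion, where it compares its mouse models, says that age-matched samples shared a chip. Whether this means a slide or the type of array is not stated. Age and any array batch that goes with it cannot be told apart.

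The striatum is the input nucleus of the basal ganglia. Most of its neurons are GABA-releasing medium spiny neurons, which receive cortical and thalamic glutamate and midbrain dopamine, and fibre bundles rich in myelin run between them. In the ageing mouse brain, astrocytes and microglia are known to take on a reactive state with more intermediate filament, complement and lysosomal RNA, and myelinating cells continue to mature into adult life. In whole tissue, more cells of a type and more RNA per cell cannot be told apart.

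Values are log2 expression values computed by the authors, and each difference is the mean of the 18-month arrays minus that of the 12-month arrays (log2 fold change), given with the standard error (SE) of the limma fit. The labelled tissue was borne out by the RNA of medium spiny neurons, with Penk at 13.26 ± 0.07 (SD, n = 5) at 12 months and 13.13 ± 0.10 (SD, n = 3) at 18 months, Ppp1r1b at 12.05 ± 0.12 and 11.96 ± 0.28, and Drd2 at 11.74 ± 0.13 and 11.69 ± 0.23. Xist RNA, made in females, was at 12.27 or above in the 3 arrays labelled female and at 6.58 or below in the 5 labelled male. The medians of the 8 arrays ran from 7.44 to 7.52. The male M2 of 18 months stood apart from the other arrays. Its interquartile range of 2.30 was like those of the 12-month females F1 and F2 (2.30 and 2.29), against 2.37 to 2.45 in the other 5 arrays, and its array weight was 0.357 against 0.839 to 1.54. For many gene lists the counts without it are given beside the list. A list without them did not necessarily keep its counts.

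No probeset of the 34760 passed the adjusted test (0%), in which limma gave 0.112 as the lowest Benjamini-Hochberg adjusted p. At an unadjusted p under 0.05, the threshold that the study used for age, there were 2550 probesets, where chance alone gives 1738. Of these, 1331 were higher at 18 months (3.83%) and 1219 were lower (3.51%). With each gene represented by its brightest probeset, 638 of 19937 genes were higher (3.2%) and 604 were lower (3.03%). The 3 arrays of 18 months lay wholly above the 5 of 12 months in 545 genes (2.73%) and wholly below them in 432 (2.17%). Most changes were small. The median log2 fold change was 0.27 among the higher and -0.23 among the lower probesets, 165 higher and 71 lower probesets reached 0.5, and 13 and 4 reached 1. When each array was centred on its median, the split was 1620 higher and 997 lower. Without the male M2 of 18 months, 4792 probesets passed (2080 higher and 2712 lower), 1789 of them with the same direction in the fit of all 8 arrays, and in 633 probesets the call was made in that fit and in every fit that left out 1 array. Counts of a list in another fit are to be read beside the shares of all genes there. These were 4.87% higher and 7.68% lower without the male M2 of 18 months, and 1.73% and 1.61% without the 18-month female. They were 1.43% and 0.597% in the males alone. With the interquartile range of each array as a covariate, a fit chosen after seeing the data, they were 3.88% and 4.61%. Over all 34760 probesets, 1262 were higher and 799 lower without the 18-month male M1, and 1045 and 806 without the 12-month female F1. These are counts of probesets, so list counts in these fits have no share of all genes beside them.

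**Figure D1:**
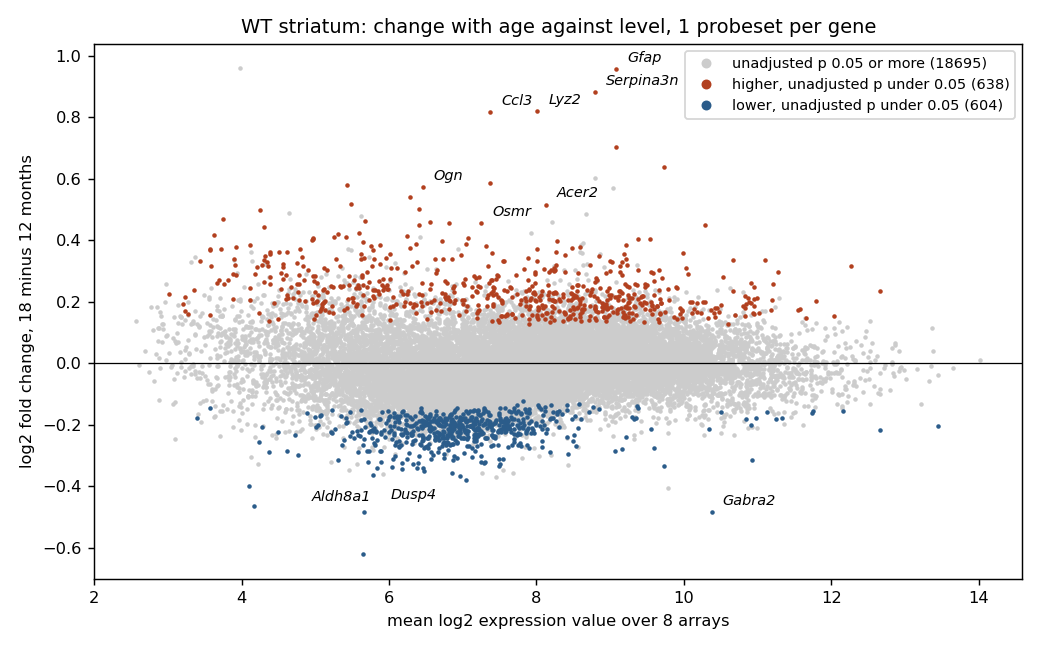
Log2 fold change (18 minus 12 months, y axis) of 19937 genes against their mean log2 expression value over the 8 WT arrays (x axis), with colour for the 638 higher and the 604 lower genes that passed at an unadjusted limma p under 0.05. The named genes Gfap, Serpina3n, Lyz2 and Ccl3 lie above the other named genes that passed. Among genes above a level of 7.77, the median of all genes, Gabra2 lies lowest.

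The 15 genes of smallest p that were higher at 18 months included genes known from reactive astrocytes (Gfap, Serpina3n and Osmr) and from myeloid cells (Lyz2, Ccl3, Clec7a and Lilrb4a). Osmr, a receptor subunit for oncostatin M, a cytokine of the interleukin-6 family, had the smallest p of any named gene. Its values were 7.06, 7.07, 7.02, 7.11 and 7.14 at 12 months (F1, F2, M1, M2, M3) and 7.59, 7.52 and 7.49 at 18 months (F1, M1, M2). All 3 old mice lay above all 5 younger ones, and the scatter within each age was small (SD 0.05 at both). The log2 fold change was 0.46 (SE 0.06, limma adjusted p = 0.166), and in a fit of all 26 arrays Osmr passed the adjusted test. In 4 WT arrays of 6 months Osmr had a mean of 7.20 (7.15 to 7.29), between the levels of the 2 later ages.

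Gfap encodes the intermediate filament of astrocytes and had the largest log2 fold change of the named genes that passed, which leave out predicted genes and receptor families. It measured 9.13, 8.65, 8.64, 8.62 and 8.61 at 12 months and 10.21, 9.47 and 9.37 at 18 months. The 12-month female F1 was the highest of the younger and the 18-month female F1 the highest of the older mice, and the ages did not overlap. The difference was 0.96 (SE 0.20, limma adjusted p = 0.504), a 1.94-fold higher linear value. Among males alone (3 and 2 arrays) it was 0.80. The mean at 6 months was 8.55, with a range of 8.21 to 8.93 (n = 4).

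Serpina3n, a protease inhibitor of reactive astrocytes, had values of 8.56, 8.64, 8.21, 8.35 and 8.57 at 12 months against 9.72, 8.93 and 9.40 at 18 months, again without overlap. Its difference was 0.88 (SE 0.17), and 0.86 without the male M2. Lyz2, the lysozyme of macrophages and microglia, measured 7.75, 7.61, 7.71, 7.73 and 7.74, then 8.90, 8.42 and 8.26, which is a difference of 0.82 (SE 0.13). Here the younger mice agreed within an SD of 0.06 while the older ones spread with an SD of 0.34. Lyz1, its neighbouring paralog, had a log2 fold change of -0.10.

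Ccl3, a chemokine of activated microglia, measured 7.07, 6.86, 7.12, 7.04 and 7.26 at 12 months and 8.11, 8.02 and 7.53 at 18 months. The male M2 was the lowest of the older mice and still above every younger one. The log2 fold change was 0.82 (SE 0.14) with this array and 1.00 without it. Clec7a, the pattern recognition receptor Dectin-1 of myeloid cells, was at 6.27, 6.13, 6.22, 6.26 and 6.22 against 6.80, 6.47 and 6.55 (0.39, SE 0.08). Lilrb4a, an inhibitory receptor of myeloid cells, was higher by 0.54 (SE 0.11) and Anxa5, which binds phosphatidylserine, by 0.36 (SE 0.08).

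The other genes among the 15 of smallest p were Acer2, a ceramidase (0.52, SE 0.10), Adipor2, an adiponectin receptor (0.38), Tcim (0.37), Chd7, a chromatin remodeller (0.33), Ankub1 (0.33), Spef2, a protein of motile cilia and flagella (0.33), and Lap3, a leucine aminopeptidase (0.30). In all 15 the ages did not overlap, a pattern found in 2.73% of genes, and the call held in every fit that left out 1 array and in the males alone. This describes genes that were chosen for their small p. Their adjusted p ran from 0.166 to 0.530.

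**Figure D2:**
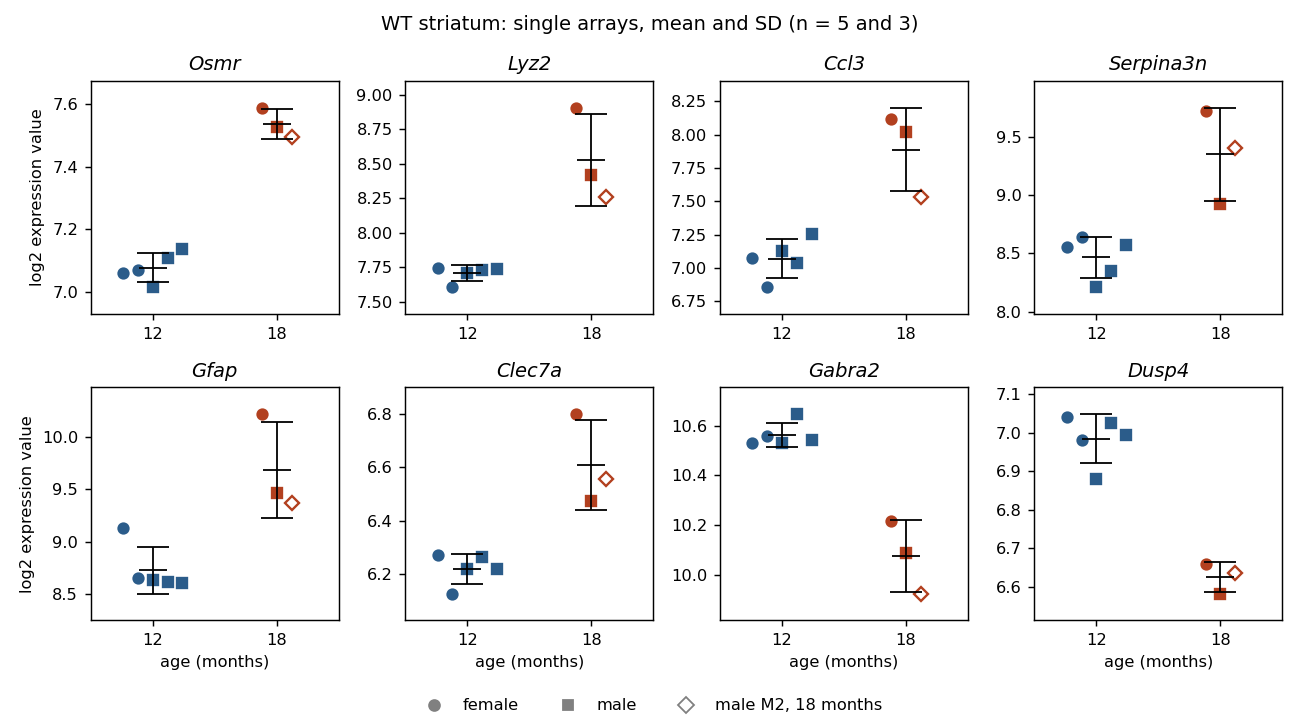
Log2 expression values (y axis) of 8 named genes in each WT array at 12 months (5 arrays, left) and 18 months (3 arrays, right), with the mean and SD as black lines and points offset sideways only for legibility. Circles are females, squares males and the open diamond the male M2 of 18 months. The 18-month arrays lie above all 12-month arrays in Osmr, Lyz2, Ccl3, Serpina3n, Gfap and Clec7a and below them in Gabra2 and Dusp4.

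The promoters of Gfap and Osmr are shown because both genes are known targets of cytokine signalling. Each window holds 250 bases before and 50 after the start site in RefSeq on GRCm38.p6, read on the gene's strand. The Gfap window is chr11:102897151-102897450 (minus strand) and the Osmr window is chr15:6874264-6874563 (minus strand). Capitals mark a STAT motif (TTCNNNGAA, which reads the same on both strands) in the first, at bases 249 to 257. In the second they mark an AP-1 motif (TGANTCA, also searched on both strands), at bases 254 to 260. Both motifs were sought in both windows. The Gfap window held no AP-1 motif and the Osmr window no STAT motif.
Gfap promoter: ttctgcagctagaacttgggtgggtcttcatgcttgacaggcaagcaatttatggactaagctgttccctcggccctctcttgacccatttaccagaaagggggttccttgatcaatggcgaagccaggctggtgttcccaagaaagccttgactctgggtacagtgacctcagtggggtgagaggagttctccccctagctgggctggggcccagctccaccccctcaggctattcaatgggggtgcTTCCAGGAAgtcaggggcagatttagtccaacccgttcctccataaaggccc
Osmr promoter: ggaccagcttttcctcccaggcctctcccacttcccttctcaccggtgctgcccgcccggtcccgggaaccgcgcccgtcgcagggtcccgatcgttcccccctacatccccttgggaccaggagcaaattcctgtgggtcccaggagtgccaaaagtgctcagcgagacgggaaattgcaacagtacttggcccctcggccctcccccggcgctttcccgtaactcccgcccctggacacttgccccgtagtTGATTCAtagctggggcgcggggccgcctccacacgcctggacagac
Of 32851 promoter windows of this length, 8.3% hold the STAT motif and 7.81% the AP-1 motif, and a match in letters does not show that a factor binds.

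Genes of ageing glia and complement were the list with the largest median. Of its 21 measured genes, 10 passed as higher (unadjusted p under 0.05), 0 passed as lower and 11 did not pass. The median log2 fold change was 0.23, where that of all genes was -0.01, and the share higher was 47.6% against 3.2% of all genes. This and the other lists were drawn up with earlier results of these data known, so such shares describe the lists and test nothing. Gfap, Serpina3n, Lyz2 and Clec7a, which passed, are also among the 15 higher genes of smallest p. Also passing were the complement components C4b and C4a, the intermediate filament Vim and the iron carrier lipocalin Lcn2. The immunoglobulin receptor Fcgr2b and the integrin Itgax completed the 10. C4b measured 9.06, 8.76, 8.85, 8.71 and 8.70 at 12 months and 9.86, 9.59 and 9.10 at 18 months, so that the male M2 was only just above the highest younger mouse (0.70, SE 0.16). Vim measured 10.07, 9.90, 10.33, 10.21 and 10.05, then 10.74, 10.49 and 10.46, with all 3 older mice above all younger ones (0.45, SE 0.11). C4a and C4b are near-identical genes, and their probes may read each other's RNA.

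The complement genes C1qa, C1qb and C1qc, whose products form C1q, had log2 fold changes of 0.17, 0.23 and 0.22 and did not pass. Apoe, the main lipid carrier of glia, was at -0.09. The mean of the list was 8.60, 8.57, 8.55, 8.55 and 8.53 at 12 months and 9.10, 8.81 and 8.74 at 18 months, with the female highest and the male M2 lowest of the older mice. Without the male M2, 17 of the 21 genes were higher and the median was 0.35. In the males alone 8 were higher with a median of 0.12, and without the 18-month female 9 were higher and 1 lower with a median of 0.15.

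Of 24 genes that mark microglia, 3 were higher (12.5% against 3.2% of all genes) and 0 lower, with a median of 0.07. They were Tyrobp, a signalling adaptor of microglial receptors (8.91, 8.90, 8.84, 8.91 and 8.89 against 9.41, 9.12 and 9.04; log2 fold change 0.30, SE 0.09), Ly86, a partner of a Toll-like receptor homologue (0.29, SE 0.10), and Ctss, a lysosomal protease (0.24, SE 0.09). Cx3cr1, Csf1r and Tmem119, which mark resident microglia, had log2 fold changes of 0.01, 0.02 and 0.04, P2ry12 of -0.10 and Aif1 of 0.15 (SE 0.08), and none of these passed. The mean of the list was 8.50 to 8.54 at 12 months and 8.77, 8.62 and 8.38 at 18 months. The male M2 was the lowest of all 8 arrays, and without it 8 genes were higher (median 0.17), whereas in the males alone 0 were and the median was -0.04. Without the 18-month female 1 was higher (median -0.03).

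Of 21 astrocyte genes, only Aqp4, the water channel of astrocyte end feet, passed (4.76% higher against 3.2% of all genes). It was at 9.17, 9.12, 9.09, 9.17 and 8.96 at 12 months and at 9.61, 9.16 and 9.50 at 18 months, so that the older male M1 lay within the younger mice (0.32, SE 0.10). The list had 20 positive values and a median of 0.07. The glutamate transporters Slc1a2 and Slc1a3 were at 0.01 and 0.02. Without the 18-month male M1 4 genes of the list were higher (median 0.12).

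Lysosomal genes were higher in 8 of 70 cases and lower in 0, with a median of 0.06 (11.4% against 3.2%), with 14 higher and 1 lower without the male M2, and with 2 higher both in the males alone and without the 18-month female. Ctsc and Ctsl, which encode cathepsins, were at 0.22 (SE 0.07) and 0.19 (SE 0.07), and Npc1 and Npc2, which export cholesterol from lysosomes, were at 0.18 and 0.22. The male M2 of 18 months had the lowest list mean of the older mice (9.34) and still lay above the 12-month range of 9.28 to 9.33. Of 34 interferon response genes, 6 were higher (17.6% against 3.2%) and 0 lower, and without the male M2 8 were higher and 4 lower. Irf9, a subunit of the interferon-stimulated transcription factor, measured 7.85, 7.89, 7.94, 7.88 and 7.86 against 8.21, 8.09 and 8.05 (0.23, SE 0.06). The RNA sensor Ddx58 was at 0.20, Rnf213 at 0.19, Xaf1 at 0.15, Ifit3 at 0.37 (SE 0.15) and Ifitm3 at 0.35 (SE 0.14). The list's median was 0.03, and it was -0.01 without the 18-month female, when 3 genes were higher (2 in the males alone). Rnf213 and Xaf1 did not pass without the male M2 (0.14 and 0.13). Of 28 genes of antigen presentation, 3 were higher and 0 lower (10.7% against 3.2% higher), with a median of -0.01. They were B2m (0.30, SE 0.12), Cd74 (0.22, SE 0.08) and Ctss, which the microglia and lysosome lists also count. Leaving out the male M2 gave 4 higher and 2 lower, B2m no longer among them (0.31), and 0 passed without the 18-month female.

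Myelin genes made up the second list in which a large share passed. Among 31 genes that mark myelinating oligodendrocytes, 16 passed as higher (51.6%) and 0 as lower, 30 had a positive log2 fold change and the median was 0.19. Anln, which is abundant in oligodendrocytes, measured 9.19, 8.90, 9.16, 9.08 and 8.95 at 12 months and 9.56, 9.32 and 9.36 at 18 months (0.36, SE 0.09). Apod, a lipid carrier, was at 12.33, 12.03, 12.18, 12.19 and 12.02, then 12.53, 12.37 and 12.51 (0.32, SE 0.09). The ages did not overlap in either, though in Apod the older male M1 lay close to the younger female F1.

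Hapln2, a link protein at nodes of Ranvier, had a log2 fold change of 0.29 (SE 0.08), Ermn, a cytoskeletal protein of myelin, of 0.28 (SE 0.09), Mag, an adhesion molecule of the innermost myelin layer, of 0.28 (SE 0.10) and Mog, of its outermost layer, of 0.24 (SE 0.10). The abundant Mbp, a core protein of compact myelin, was at 12.16 ± 0.06 (SD, n = 5) and 12.28 ± 0.11 (SD, n = 3) and did not pass (0.12, SE 0.07). List means were 9.77, 9.65, 9.72, 9.74 and 9.61 at 12 months and 10.02, 9.82 and 9.80 at 18 months. The highest was the 18-month female. Without this female 3 myelin genes were higher (median 0.12), in the males alone 4 were (median 0.12), and without the male M2 19 were (median 0.25), so that the number of calls rested on the female while the median stayed positive. Of 12 genes of oligodendrocyte precursors, 2 were higher and 1 lower (16.7% and 8.33%, against 3.2% and 3.03% of all genes). Tmem100 (0.27, SE 0.10) and Ptprz1 (0.16, SE 0.06) were higher. Gpr17, a receptor of precursors about to mature, was lower (-0.18, SE 0.06). Ptprz1 did not pass without the male M2 (0.14).

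**Figure D3:**
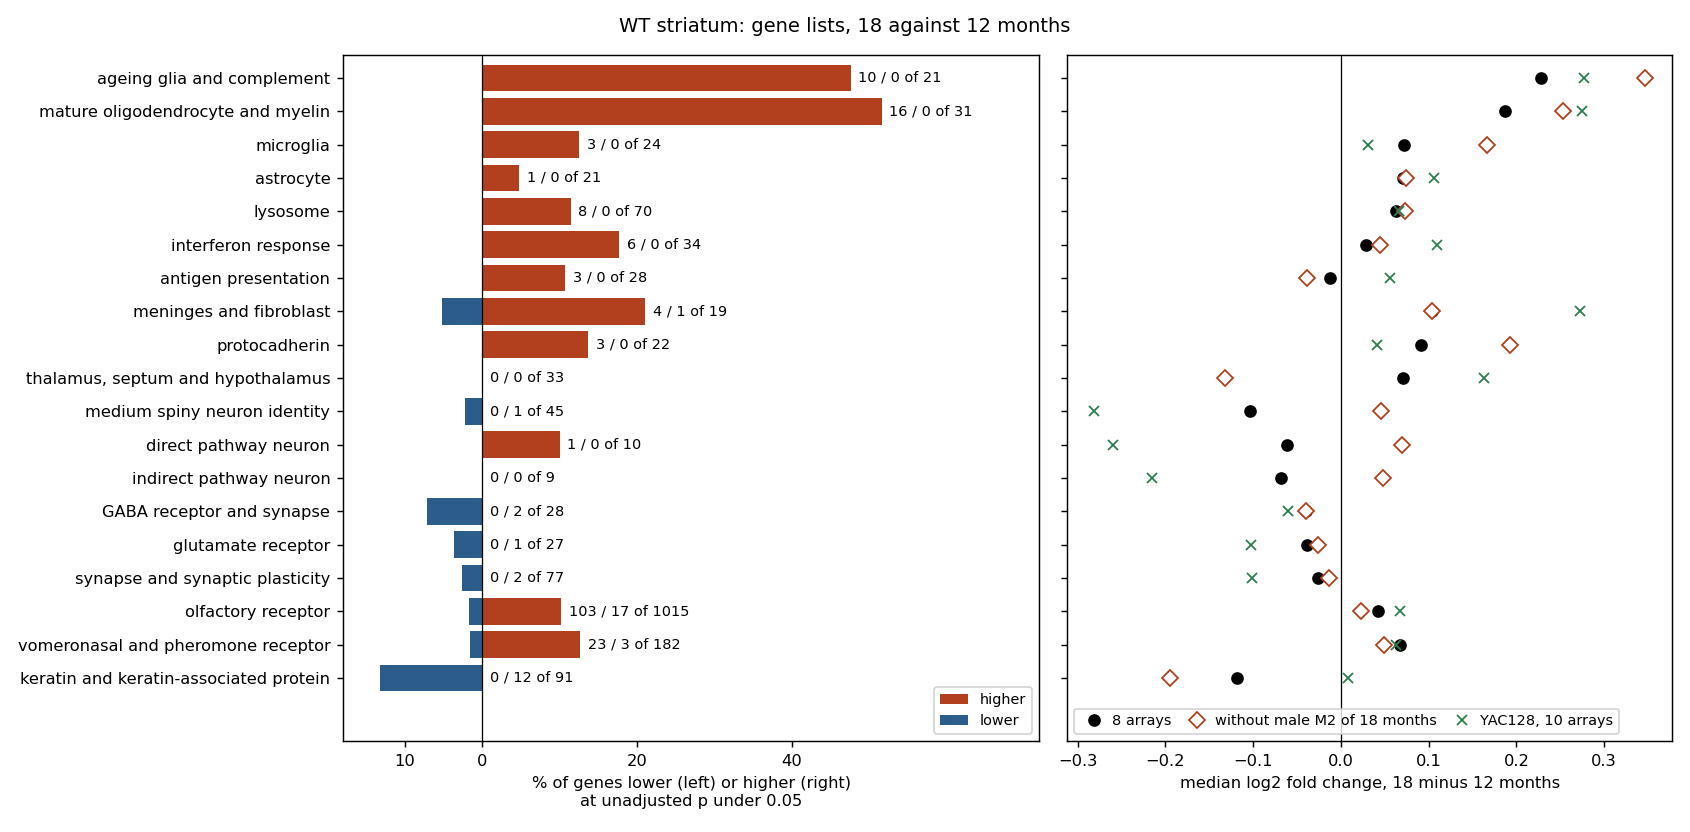
Gene lists in WT striatum, 18 against 12 months. Bars on the left give the share of each list's genes higher or lower at an unadjusted limma p under 0.05 (x axis, percent), with the counts higher / lower beside them. On the right is the median log2 fold change of each list in the 8 WT arrays, without the male M2 of 18 months, and in 10 YAC128 arrays. The median of the medium spiny neuron list is -0.10 with the male M2 and 0.05 without it, while that of the ageing glia list is 0.23 and 0.35.

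The median of the medium spiny neuron markers changed sign when a single array was left out. Of 45 identity genes, 44 had negative log2 fold changes with a median of -0.10, but only Hpca, a calcium sensor, passed (-0.22, SE 0.08, and -0.13 without the male M2, when it did not), 0 were higher, and 1 lower of 45 is 2.22% against 3.03% of all genes. The list's means were 10.57, 10.46, 10.70, 10.68 and 10.55 at 12 months and 10.61, 10.66 and 10.19 at 18 months. The male M2 was the lowest of the 8 and the other older mice lay within the younger ones. Without this array the median was 0.05, 36 of 45 values were positive and 0 genes passed in either direction. Other fits gave more lower genes, with 4 without the 18-month female (median -0.17), 3 without the 18-month male M1 (median -0.20) and 14 with the interquartile range as a covariate (median -0.18), and 0 higher in each. Drd1, the dopamine receptor of the direct pathway, had -0.13 (SE 0.11) with the male M2 and 0.01 without it, and Ppp1r1b, the phosphatase inhibitor DARPP-32, had -0.09 (SE 0.12) and 0.07.

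In the same male M2 the mean of 33 genes of thalamus, septum and hypothalamus was 8.69, against 7.84 to 8.24 in the other 7 arrays, and that of the microglial genes was at its lowest. Their part in the results was not tested. None of the 33 thalamic and related genes passed, and their median was 0.07 with this array and -0.13 without it, when 4 were lower. Without the 18-month male M1 6 were higher (median 0.18). Other marker genes of tissue near the striatum varied within an age. Slc17a7, the vesicular glutamate transporter of cortical neurons, was at 9.05, 9.68, 10.13, 9.66 and 11.07 at 12 months and at 9.08, 10.53 and 10.50 at 18 months. Ttr, abundant in choroid plexus, was at 10.17, 10.42, 11.74, 12.42 and 11.72, then 11.71, 10.98 and 10.69. In both genes the ages overlapped.

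**Figure D4:**
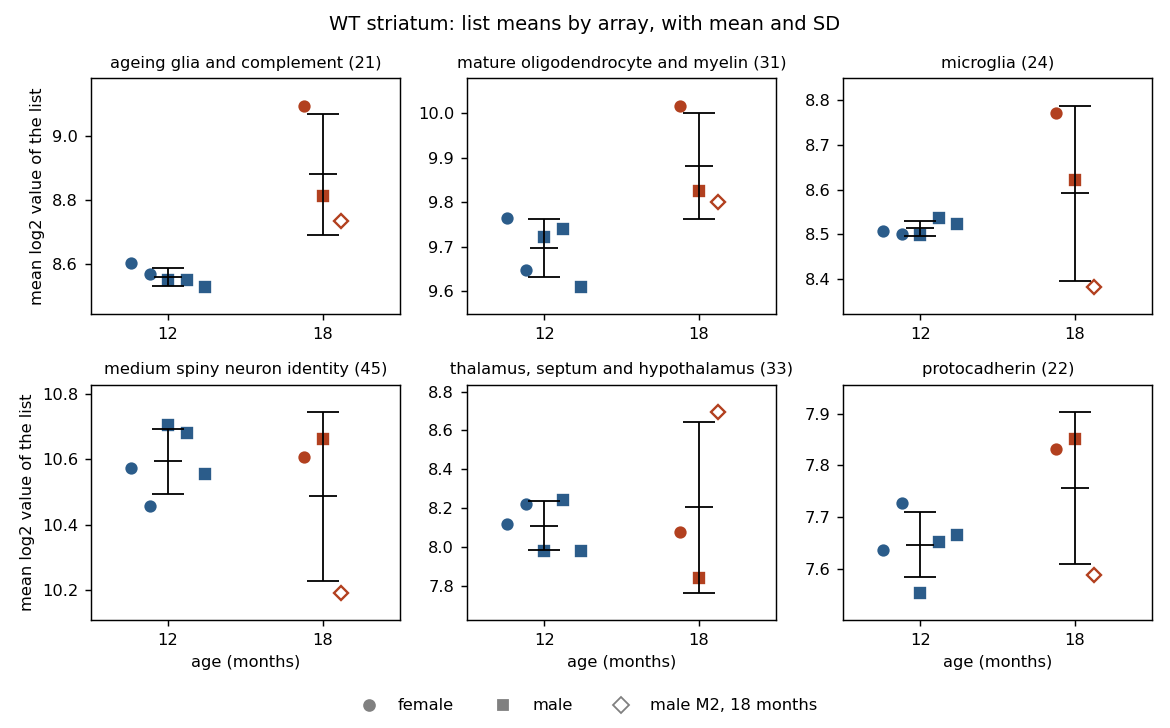
Mean log2 expression value of 6 gene lists (y axis; number of genes in brackets) in each WT array at 12 and 18 months, with mean and SD as black lines. The 18-month arrays lie above all 12-month arrays in the ageing glia and myelin lists, and the male M2 (open diamond) is the lowest of the 8 arrays in the medium spiny neuron and microglia lists and the highest in the thalamus list.

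Among receptors of neurons, Gabra2, the alpha 2 subunit of the GABA-A receptor, had the smallest p of the genes that were lower. Its values were 10.53, 10.56, 10.53, 10.64 and 10.54 at 12 months and 10.22, 10.09 and 9.93 at 18 months. The ages did not overlap and the male M2 was the lowest. The log2 fold change was -0.49 (SE 0.07, limma adjusted p = 0.232) and -0.41 without the male M2. In WT arrays of 6 months Gabra2 was at 10.51 on average (10.19 to 10.65, n = 4). Gabrg3, another subunit, was at -0.20 (SE 0.08) and at -0.12 without the male M2, when it no longer passed. Gabra2 and Gabrg3 were 7.14% of the 28 genes of GABA receptors and synapses, against 3.03% lower of all genes. The other 26 did not pass (list median -0.04). Without the 18-month female 4 of the 28 were lower.

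Of 77 synaptic genes, 0 were higher and 2 lower (2.6% against 3.03% of all genes), namely Ppp3cb, the catalytic subunit of calcineurin (-0.18, SE 0.06), and Cplx3, a complexin (-0.22, SE 0.07), with a median of -0.03. With the interquartile range as a covariate 8 were lower. Of 27 glutamate receptor genes, 1 was lower (3.7% against 3.03% of all genes) and 0 were higher. It was Grm5, a metabotropic receptor abundant in the striatum (-0.16, SE 0.07), which did not pass without the male M2 (-0.09). With the covariate 5 glutamate receptor genes were lower. None of 9 genes of the indirect pathway, 1 of 10 of the direct pathway (Sfxn1, at 0.19) and 0 of 30 of opioid, cannabinoid and dopamine signalling passed. With the covariate 4, 2 and 5 of these lists' genes were lower. Among 108 neurotransmitter and peptide receptors, 1 was higher (Lpar6, a lysophosphatidic acid receptor, at 0.29) and 6 lower. These were shares of 0.93% and 5.56%, where those of all genes were 3.2% and 3.03%. Prokr1 (-0.27), Htr3b (-0.27) and Lpar3 (-0.25) had the smallest p of the lower receptors. There were 2 higher and 8 lower without the male M2, and with the covariate 2 and 13. Of 77 ion channels 3 were lower (3.9% against 3.03% of all genes) and 0 higher. The 3 were the calcium channel subunits Cacnb2 (-0.23), Cacna1f (-0.18) and Cacng1 (-0.15). Of the ion channels 10 were lower without the male M2 and 9 with the covariate.

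The remaining genes of smallest p that were lower had mixed roles. Dusp4, a phosphatase that switches off MAP kinases, measured between 6.88 and 7.04 in the 5 arrays of 12 months and 6.66, 6.58 and 6.64 at 18 months, with no overlap (-0.36, SE 0.06). At 6 months its mean was 6.76, with a range of 6.64 to 6.89 (n = 4), so the mean was highest at 12 months. Aldh8a1, an aldehyde dehydrogenase, measured 5.93, 6.02, 5.86, 5.96 and 5.85, then 5.37, 5.61 and 5.69 (-0.37, SE 0.08). Hapln3, a hyaluronan link protein, was at -0.37 (SE 0.10), the germ cell gene Dppa3 at -0.34, the transcription factor genes Bhlhe23 at -0.32, Dlx4 at -0.28 and Foxb2 at -0.27, and Cdca7l at -0.31. The RNA-binding protein gene Rbpms2 (-0.29), Elobl (-0.29), Spryd3 (-0.28), B9d2 of the ciliary base (-0.25) and the cytokine gene Il1f8 (-0.23) complete the 15. In all 15 the 18-month arrays lay below those of 12 months, as in 2.17% of genes. Every fit that left out 1 array kept the call. In the males alone 13 passed, and Elobl and Dlx4 did not. As with the higher genes, this describes genes that were chosen for their small p.

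YAC128 mice of the same ages share no array with the WT mice, so they give a second set of values for genes picked in WT. Of the 15 genes with the smallest p that were higher in WT, all had a positive log2 fold change in YAC128 striata and 13 were higher there at an unadjusted limma p under 0.05, where 5.88% of all genes were. Gfap was at 1.13, Ccl3 at 0.62, Lyz2 at 0.59, Serpina3n at 0.58, Anxa5 at 0.50 and Osmr at 0.29 in YAC128, and Spef2 (0.18) and Tcim (0.17) did not pass. Of the 15 that were lower in WT, 10 had a negative value in YAC128, and 2 passed there, Gabra2 (-0.57) and Spryd3 (-0.25), where 5.51% of all genes were lower. Dusp4 was at -0.03, Foxb2 at 0.01, Bhlhe23 at 0.02 and Aldh8a1 at 0.09. The mean of Spryd3 at 6, 12 and 18 months was 9.04, 9.27 and 8.99 in WT and 9.01, 9.25 and 9.01 in YAC128. In both genotypes Spryd3 thus stood highest at 12 months, with 18 months near the level of 6 months. Gabra2 in YAC128 had means of 10.60, 10.58 and 10.02 at these ages. The part of any batch shared by the genotypes at an age was not tested. The test of the difference in the change between genotypes gave 0 of 34760 probesets at an adjusted p under 0.05 (0%; lowest adjusted p 0.824) and 1406 at an unadjusted p under 0.05 (4.04%), where chance alone gives 1738. It gave 1 adjusted without the YAC128 female F1 of 12 months.

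Receptors of the nose made up a large share of the dim genes that were higher. These receptors bind odorants and pheromones in sensory neurons, and each sensory neuron is known to express few of them. Olfactory receptors numbered 1015, of which 103 passed as higher and 17 as lower (10.1% and 1.67%), with a median of 0.04. Of 182 vomeronasal and pheromone receptors 23 were higher and 3 lower (12.6% and 1.65%), with a median of 0.07. The shares of all genes were 3.2% and 3.03%. Without the male M2 of 18 months the olfactory counts were 112 and 43 and the vomeronasal counts 18 and 9. Levels of these receptors were low, with median values of 5.64 and 4.99, where that of all genes was 7.77. The mean of the olfactory list was 5.57, 5.65, 5.55, 5.52 and 5.48 at 12 months and 5.61, 5.58 and 5.64 at 18 months, so that the ages overlapped through the 12-month female F2. Both medians stayed positive after quantile normalization and after centring of each array.

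When genes were split by mean level into 4 bins of equal size, the dimmest held 1061 of these receptors, of which 124 were higher and 17 lower (11.7% and 1.6%). Of the other 3923 genes of that bin more were lower than higher, with 87 higher and 207 lower (2.22% and 5.28%). Bitter taste receptors, with a median level of 5.49, had 2 of 37 higher (5.41% against 3.2% of all genes) and 0 lower. Keratins and keratin-associated proteins, of epithelia and hair, were lower in 12 of 91 cases and higher in 0 (13.2% against 3.03% lower, median -0.12). Leaving out the male M2 of 18 months gave 33 lower and 0 higher (median -0.19), leaving out the female or the male M1 of that age gave 6 or 4 lower and 2 higher, and with the interquartile range as a covariate 13 were lower and 5 higher. Their mean was 6.86 to 6.92 in the 3 arrays of narrow interquartile range (the 12-month females F1 and F2 and the 18-month male M2) and 6.66 to 6.81 in the other 5 arrays, and in the males alone 1 was higher and 1 lower (median -0.02). Whether the receptors and keratins are transcribed in striatum was not tested, and none of these genes passed the adjusted test.

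The direction of change also went with the level of expression. In the brightest of the 4 bins 182 genes were higher and 26 lower, in the third 151 and 74, in the second 94 and 280, and in the dimmest 211 and 224. This split was not stable. With the interquartile range of each array as a covariate, the brightest bin had 177 higher and 278 lower and the dimmest 323 and 198, and in the males alone the brightest bin had 32 and 27 and the dimmest 186 and 32. Without the male M2 of 18 months, 300 were higher and 28 lower in the brightest bin and 233 and 579 in the dimmest. The 15 higher and 15 lower genes of smallest p all kept their call with the covariate, but they were chosen for small p in these same arrays. Of 99 named genes called, 91 kept the call with it.

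**Figure D5:**
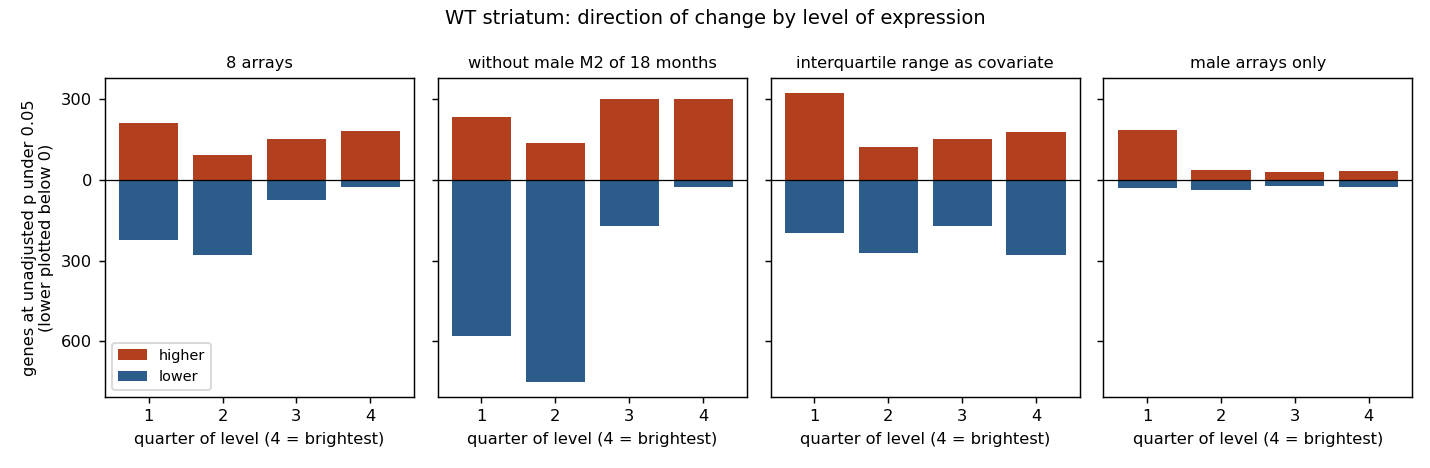
Number of genes higher (above 0) and lower (plotted below 0) at an unadjusted limma p under 0.05 in each of 4 equal bins of mean expression level (x axis, 4 is the brightest), in 4 fits. In the brightest of the 4 bins 182 genes were higher and 26 lower in the 8 arrays, against 177 and 278 with the interquartile range as a covariate.

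The other groups are given beside shares over all genes of 3.2% higher and 3.03% lower. Of 22 protocadherins, adhesion molecules that give neurons a surface identity, 3 were higher (13.6%) and 0 lower (median 0.09), namely Pcdhb21, Pcdhb11 and Pcdhb9 at 0.24 to 0.26. Their list mean in the male M2 was 7.59, below the 7.83 and 7.85 of the other older mice, and without it 10 were higher. Of 19 genes of meninges and fibroblasts, 4 were higher (21.1%) and 1 lower, and without the 18-month male M1 1 was higher. Ogn, a proteoglycan of connective tissue, measured 6.20, 6.17, 6.33, 6.34 and 6.20 at 12 months and 6.84, 7.15 and 6.47 at 18 months (0.57, SE 0.13), and Ptgds, a prostaglandin synthase of meninges and oligodendrocytes, was at 0.34 (SE 0.11). Among 90 genes of collagens and basement membrane, 2 were higher and 5 lower (2.22% and 5.56%, median -0.07), with Timp4, an inhibitor of matrix proteases, at 0.23 and the protease Mmp9 at -0.22. When the male M2 was left out 18 of these were lower (median -0.12), and in the males alone 0 were. Of 7 genes of blood cells, Alas2, the haem synthesis enzyme of red cells (0.22, SE 0.08), and Ngp, a neutrophil granule protein (0.21, SE 0.08), were higher and Epb42, of the red cell membrane (-0.19, SE 0.08), was lower. Of these only Alas2 passed without the male M2.

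Of 83 genes of oxidative phosphorylation 2 were higher and 0 lower (2.41%, median 0.04), of 62 ribosomal proteins 1 and 0 (1.61%, median 0.03), of 39 proteasome genes 0 and 0, of 88 chaperones 1 and 1, and of 20 genes of cholesterol synthesis 2 and 0 (10%, median 0.08). Without the male M2 of 18 months the oxidative phosphorylation list had 9 higher and 2 lower, the ribosomal list 10 and 0 and the chaperones 5 and 1. The cholesterol list had 0 higher without the 12-month female F1 and 0 without the 18-month male M1. Of 30 immediate early genes 1 was higher (Jun, at 0.18) and 1 lower (Maff, at -0.26), and of 20 clock genes Bhlhe41 was higher (0.22). Among 27 genes of senescence, Ccl3 and Trp53inp1 were higher and the cell cycle inhibitors Cdkn2a (-0.22, SE 0.09) and Cdkn2b (-0.18, SE 0.07) were lower. Among genes of other cells, 0 of 27 passed for cortical projection neurons, 1 of 26 lower for choroid plexus and ependyma, 1 of 18 lower for lymphocytes (1 higher and 4 lower without the male M2) and 1 of 20 lower for striatal interneurons (Htr3a, a serotonin-gated channel subunit, at -0.24, which did not pass without the male M2). Of 28 genes of endothelial and mural cells Slc2a1, the glucose transporter of the blood-brain barrier, was higher (0.21, SE 0.06) and Tagln, of smooth muscle, was lower (-0.27, SE 0.08), and without the male M2 4 were higher and 1 lower.

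MicroRNA genes are read by these arrays through their precursor RNA, so the values do not measure the mature microRNA. Of 291 such genes 10 were higher and 8 lower (median 0.01), shares of 3.44% and 2.75% that lie near those of all genes, and without the male M2 of 18 months 14 were higher and 27 lower. The mature product of the 3′ arm is shown for 4 of them, each of which also has one of the 5′ arm, with the seed (bases 2 to 8) in capitals, as RefSeq gives them on GRCm38.p6, because Mir505 and Mir369 had the smallest p of all microRNA genes, Mir412 lies beside Mir369, and Mir27a had the largest fall.
mmu-miR-505-3p: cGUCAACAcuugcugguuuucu
mmu-miR-369-3p: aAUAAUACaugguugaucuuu
mmu-miR-412-3p: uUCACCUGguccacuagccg
mmu-miR-27a-3p: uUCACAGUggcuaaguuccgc
Their positions are chrX:60394416-60394437 (minus strand), chr12:109743466-109743486, chr12:109743340-109743359 and chr8:84208727-84208747 (all plus strand). No pair of these 4 shares a seed.

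Mir505 measured 9.16, 9.26, 9.28, 9.26 and 9.22 at 12 months and 9.52, 9.45 and 9.50 at 18 months, with no overlap (0.26, SE 0.06). Mir369 measured 6.85, 7.17, 6.91, 7.29 and 7.50, then 7.73, 7.93 and 7.54, where the male M2 was just above the highest younger mouse (0.59, SE 0.15). Mir412 was at 0.41 (SE 0.13) and Mir409, beside it, at 0.28 (SE 0.11), and in both the ages overlapped. These 3 genes are neighbours on chromosome 12. Of 29 measured microRNA genes within 100 kb of Mir369, 3 were higher, 0 lower and 21 positive, with a median of 0.04. The 3 were Mir369, Mir412 and Mir409 themselves. Because the window was centred on a gene picked for its small p, this count describes the region and tests nothing. Of all genes, 3.2% were higher and 3.03% lower. Mir27a was lower (-0.31, SE 0.10).

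Several of the smallest p-values belonged to probesets that carry no gene symbol here. Of the probesets that were higher, 52.6% carried 1 symbol, and of those that were lower 52.7%, against 62.3% of all. Probeset 10441511 measured 9.12 or less in each of the 5 arrays of 12 months and 9.80, 9.88 and 9.61 at 18 months (0.70, SE 0.07, limma adjusted p = 0.112), and it passed the adjusted test after quantile normalization, among the brighter probesets alone and with array weights. Probeset 10341643 had the largest difference, from 4.31, 5.72, 4.19, 4.38 and 4.37 to 6.42, 6.66 and 6.30 (1.86, SE 0.32). Probeset 10340514 was lower, at 5.99, 5.80, 5.72, 5.79 and 5.84 and then 4.80, 5.37 and 4.65 (-0.89, SE 0.15) and passed the adjusted test without the 18-month male M1. What these probesets read, and whether it is a gene, is not known here.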

How the data were processed

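Total RNA of micro-dissected striatum was hybridised to Affymetrix Mouse Gene 1.0 ST arrays. The authors selected RNA by integrity number and computed robust multichip average (RMA) values with the affy package (version not given in the sources used here), and deposited them as log2 values. The labels describe biotinylated cRNA and the study's methods a whole-transcript cDNA kit, and which applied was not settled. RMA equalises the arrays, so only changes relative to other probesets are seen. Arrays have no read depth, and their number limits the precision. The study states more mice than the arrays used here.

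The values were used as deposited. Of 34760 probesets, 21640 carry 1 symbol, 1321 several and 11799 none. All were tested with lmFit and eBayes of limma 3.58.1 (R 4.3.3) on the 8 WT arrays, two-sided, with Benjamini-Hochberg adjustment over all probesets and thresholds of 0.05 for unadjusted and adjusted p. The difference between genotypes was the interaction in a fit of 4 groups. In lists, a gene was represented by its probeset of highest mean. Some lists share members, so a gene can be counted in several of them. Tables and plots were made with pandas 2.3.3 in Python 3.11.15. The fits were tested on simulated arrays. Nothing says that the arrays of a group share no litter or batch, so p-values measure only the spread between these samples.

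No column of the table was left unmapped to a sample. Named genes are the 15 of smallest p in each direction (predicted genes and receptor families left out), those at an adjusted p under 0.05 in any fit, up to 4 members of each list of smallest unadjusted p under 0.05 or else the 1 of smallest p, and defining markers. Further members of lists (for example C4b, C4a, Vim, Lcn2, Fcgr2b, Itgax, C1qa, Apoe, Lyz1, Cx3cr1, Mag, Mog, Npc2, Ctsl, Ifit3 and Ifitm3), the microRNA genes and the unnamed probesets were named after their values were seen. The lists of microRNA precursors and small nucleolar RNAs were added after seeing the data, and the latter had 0 of 51 genes higher and 1 lower. The members and lists were chosen with earlier results of these data known. Alternatives were quantile normalization, median centring, filters, all 26 arrays, sex, males only, array weights, trended and robust variance, a replicate block, leaving out each array, and the interquartile range as a covariate. Of 291 microRNA symbols, 262 matched RefSeq sequences.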

Additional observations from a re-analysis of the deposited data

Results flagged for a closer look

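In 7 of 111 named genes and 1 of 44 gene lists, a single 12-month array lay apart from the other 4 by Dixon's criterion, which chance flags in about 1 of 20 groups, and the 18-month group of 3 was not tested. The female F1 was apart in Gfap (9.13, the others 8.61 to 8.65), Ddx58 (7.56, others 7.41 to 7.45) and Htr3a (6.58, others 6.88 to 6.97). The female F2 was apart in Lyz2 (7.61, others 7.71 to 7.75), Ptprz1 (10, others 9.83 to 9.87) and the mean of the microRNA precursor list (6.56, others 6.46 to 6.48). The male M2 of 12 months was apart in Gabra2 at 10.6 (others about 10.5) and the male M3 in Bhlhe23 at 7.25 (others 7.38 to 7.41). Gfap, Lyz2, Gabra2 and Bhlhe23 kept their call without each of these arrays.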

How the results depend on the processing

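Against 2550 probesets at an unadjusted p under 0.05 (1331 higher, 1219 lower) and 0 adjusted, the counts moved by over 1.5 times as follows. Brighter probesets alone gave 1237 (715 and 522) with 1 adjusted, and probesets with 1 symbol gave 852 higher, both with fewer probesets tested. Males alone gave 1423 (518 lower), array weights 4452 (2458 lower) with 1 adjusted, quantile normalization 1 adjusted and the fit of all 26 arrays 2 adjusted. The replicate block gave 1625 (515 lower), but same-numbered mice of the 2 ages correlated at -0.007 (F1), 0.119 (M1) and -0.143 (M2), so the numbers do not pair them. Leaving out 1 array gave 1848 to 4792 probesets (1020 to 2080 higher, 766 to 2712 lower) and 0 to 2 adjusted. Without 1 array, 1097 to 3317 probesets lay wholly above and 941 to 3801 wholly below the 12-month range, against 915 and 798, since fewer arrays overlap less. The difference between genotypes gave 0 to 1. The cause of these shifts was otherwise not tested. List medians that moved by more than the spread between arrays were those of blood (0.12) and proteasome (-0.029) and lysosome (0.028) in males alone, glutamate receptors with the interquartile range as a covariate (-0.083), and, leaving out 1 array, meninges (0.042 to 0.12), opioid signalling (-0.096 to 0.0076) and ion channels (-0.069 to -0.025). Genes that did not pass changed sign: Ppp1r1b to 0.071 (-0.19 to 0.071 leaving out 1 array), Drd1 to 0.0065 (-0.26 to 0.0065), Drd2 to 0.076 and, with array weights, 0.0040 (-0.14 to 0.076), Slc17a7 to -0.10, -0.13, -0.11 and, with array weights, -0.040 (to 0.60), and Ttr to 0.11 and 0.049 (from -0.46). Of 99 named genes called, 46 kept the call in males alone, 49 with the replicate block, 63 to 85 leaving out 1 array and 74 or more in the other fits. Filters and trended variance were run for the counts only.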
